A study of Mus musculus with 31 samples.

Results

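The 9 genes described here encode transcription regulators that build the gonad before it becomes a testis or an ovary: Nr5a1, Wt1, Gata4, Zfpm2, Lhx9, Emx2, Cbx2, Nr0b1 and Tcf21. They were chosen by name, 9 of the 18194 genes measured, and each was read from the probe set annotated with its symbol alone that had the highest mean over the 31 arrays. The study measured RNA of whole fetal gonads on Affymetrix arrays, from male and female mouse embryos aged 12, 14 or 16 days after mating (days post coitum, dpc). Embryos were either wild type or homozygous for Wv, written Wv/Wv. Wv is a point mutation of Kit, the receptor that fetal germ cells need to migrate and survive, and its homozygotes lack most germ cells. Wild-type ovary had 2, 3 and 3 arrays at 12, 14 and 16 dpc, Wv/Wv ovary 2, 3 and 3, wild-type testis 1, 3 and 3, and Wv/Wv testis 3, 2 and 3. The labels call arrays of a group biological replicates but do not say whether each came from separate embryos or pools, so the p-values measure only the spread between these samples. Strain and pooling were not given in the sources used here.

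The gonad arises as a thickening of the coelomic epithelium on the mesonephros, the embryonic kidney beside it. In this ridge WT1, EMX2, LHX9 and GATA4 are needed for growth of the tissue and for expression of Nr5a1, which encodes the nuclear receptor SF-1. FOG2, the product of Zfpm2, is a cofactor of GATA4. The ridge is alike in both sexes at first. Sry then starts the Sertoli cell programme in the male, Leydig cells begin to make steroids, and the ovary keeps a programme driven by Wnt4, Rspo1 and Foxl2.

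Values are log2 signals, so a difference of 1 is a factor of 2, which holds for probe signal and not for molecules. A gene was called where limma's moderated test over all 18194 genes gave a Benjamini-Hochberg adjusted p under 0.05. In whole gonads, fewer cells of a type and less RNA per cell cannot be told apart. Germ cell genes checked the genotype labels: the mean of 11 such genes was 7.19 to 10.0 on the 15 wild-type arrays and 4.39 to 5.57 on the 16 Wv/Wv arrays. Foxl2 was 7.27 to 10.4 on ovary and 6.19 to 7.23 on testis arrays, and Fst was 10.1 to 12.0 on ovary and 4.43 to 7.47 on testis arrays. Sox9, the Sertoli cell regulator, overlapped between the gonads, at 7.20 to 9.81 on testis and 5.19 to 7.32 on ovary arrays. Amh was 5.77 to 7.00 on ovary and 6.40 to 11.5 on testis arrays, Star 5.94 to 7.04 and 6.16 to 11.5, and Pax8, a mesonephros gene, 5.70 to 7.71 and 5.20 to 7.08. Cyp21a1, an adrenal enzyme gene, was 6.39 to 7.31 on ovary and 6.43 to 8.15 on testis arrays.

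The arrays fell into 2 classes by the spread of their values, divided at an SD of 2.3 in these data. No label names the classes, and their cause is not known. The groups held them in unequal shares. On 21 arrays the SD of all values was 2.33 to 2.39, and on 10 arrays it was 1.77 to 2.18; these are called wide-spread and narrow-spread. The gap between 3′ and 5′ Gapdh probe sets, a measure of how far labelled RNA extends, was 2.01 ± 0.19 (SD, n = 21) on the former and 0.70 ± 0.19 (SD, n = 10) on the latter. All 3 wild-type ovary arrays at 16 dpc were narrow-spread, and the array with the lowest SD was wild-type testis 16 dpc array 1. Within the 6 groups that held both classes, the median narrow minus wide difference was -0.91 for Nr0b1, -0.60 for Emx2, -0.54 for Cbx2, -0.53 for Zfpm2, -0.25 for Wt1, -0.13 for Lhx9, 0.19 for Nr5a1, 0.25 for Tcf21 and 0.53 for Gata4. The main results on the 9 genes are therefore given also from a fit with the array class as a term and without wild-type testis 16 dpc array 1, called the class-adjusted fit. No array at 12 dpc was narrow-spread, so a difference between 12 dpc groups has the same size in both fits. A call gained there comes from the smaller error, which is pooled over all ages. Class-adjusted values of wild-type ovary at 16 dpc rest on a class shift taken from other groups. Results on gene lists are from the fit to all arrays alone.

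Promoter sequence was at hand for 4 of the 9 genes, and 3 windows are shown because Emx2 was called lower and Tcf21 higher in testis at 14 dpc, while Nr0b1, whose product acts on SF-1, was not called between the gonads. Each is the 250 bases before the RefSeq start on the gene's strand, in GRCm38.p6, at chr19:59458440-59458689 (plus) for Emx2, chrX:86191525-86191774 (plus) for Nr0b1 and chr10:22820144-22820393 (minus) for Tcf21. Capitals mark AGGTCA, the half-site of nuclear receptors such as SF-1, and GATAA, the core bound by factors of the family of Gata4, on either strand.
Emx2: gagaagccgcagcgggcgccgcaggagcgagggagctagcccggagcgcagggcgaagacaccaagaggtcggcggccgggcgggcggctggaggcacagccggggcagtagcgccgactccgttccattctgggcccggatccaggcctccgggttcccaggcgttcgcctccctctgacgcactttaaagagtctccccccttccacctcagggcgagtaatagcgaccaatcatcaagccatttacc
Nr0b1: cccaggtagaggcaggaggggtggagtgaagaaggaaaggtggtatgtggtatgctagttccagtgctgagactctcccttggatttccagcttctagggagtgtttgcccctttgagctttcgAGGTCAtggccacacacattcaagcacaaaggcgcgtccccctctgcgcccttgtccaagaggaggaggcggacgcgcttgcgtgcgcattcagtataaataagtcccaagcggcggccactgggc
Tcf21: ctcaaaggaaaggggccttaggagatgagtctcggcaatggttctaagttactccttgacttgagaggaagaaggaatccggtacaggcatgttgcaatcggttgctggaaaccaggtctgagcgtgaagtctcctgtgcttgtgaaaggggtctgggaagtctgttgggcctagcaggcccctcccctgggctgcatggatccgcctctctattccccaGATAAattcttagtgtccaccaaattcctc
The Nr0b1 window held 1 AGGTCA, 126 to 121 bases before the start, a motif present in 14% of the 32851 promoter windows of this length. The Tcf21 window held 1 GATAA, 30 to 26 bases before the start, as 22.6% of all windows do, and the Lhx9 window also held 1. The Emx2 window held neither, and TAATTA, a homeodomain core found in 4.84% of windows, was in none of the 4. The E-box CANNTG, found in 66.2% of windows, was present only in that of Lhx9 among the 4. The marked motifs did not overlap. These matches describe letters and show no binding.

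Signal was well above background for most of the 9 genes. Tcf21 had the highest mean signal, 11.51, above 97.6% of genes, followed by Lhx9 at 10.76, Wt1 at 10.67, Nr5a1 at 10.25, Emx2 at 10.01, Gata4 at 9.83, Zfpm2 at 9.62 and Cbx2 at 8.70. Nr0b1 was lowest at 7.80, above 59.0% of genes, and was over the low-signal limit of 5.39 on 30 of 31 arrays, where the other 8 were over it on all 31. Probe sets differ in efficiency, so these positions do not order the genes by abundance. The genes differed in how far their group means ranged: 2.85 for Emx2, 1.96 for Wt1, 1.85 for Nr0b1 and 1.82 for Nr5a1, against 1.00 for Zfpm2 and 0.93 for Lhx9. A second Lhx9 probe set, with a mean of 10.47 and over the limit on all 31 arrays, had group means from 9.52 to 11.1.

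**Figure D1:**
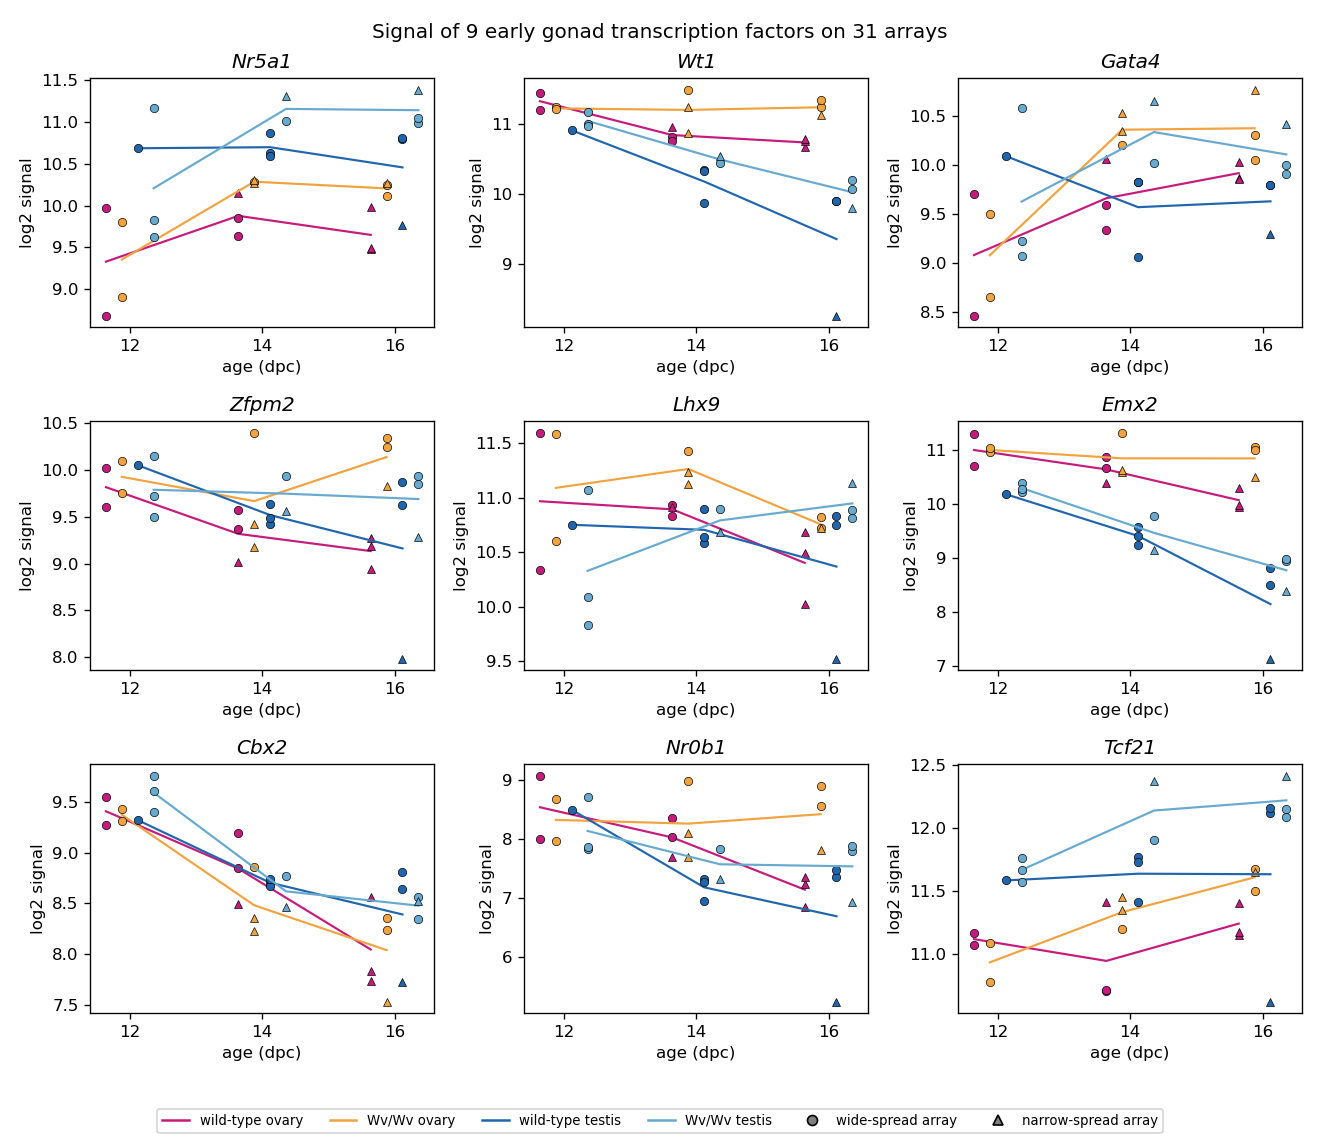
Log2 signal (vertical axis) of each of the 9 genes against age in dpc (horizontal axis, groups set slightly apart). Each point is 1 of 31 arrays, circles wide-spread and triangles narrow-spread, and lines join the group means. Emx2 and Wt1 fell with age in testis, and Cbx2 is lower at 16 than at 12 dpc in all 4 lines. The lowest point of Emx2, Wt1, Nr0b1, Zfpm2, Lhx9 and Tcf21 is wild-type testis 16 dpc array 1.

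Emx2, a homeobox gene needed for the growth of the ridge, had the widest sex difference. In wild-type ovary its signal was 10.71 and 11.29 at 12 dpc, 10.38, 10.68 and 10.86 at 14 dpc, and 9.95, 10.29 and 9.98 at 16 dpc. In wild-type testis it was 10.18 at 12 dpc, 9.24, 9.40 and 9.58 at 14 dpc, and 7.13, 8.50 and 8.81 at 16 dpc. The gonads did not overlap at any age in wild type, and the testis array at 7.13 is the one of lowest SD. Wv/Wv ovary gave 10.96 and 11.04, then 11.32, 10.59 and 10.62, then 11.05, 10.49 and 10.99, while Wv/Wv testis gave 10.22, 10.38 and 10.28, then 9.78 and 9.15, then 8.38, 8.95 and 8.99. Here too every testis array was below every ovary array of its age. Averaged over genotypes, testis was lower than ovary by -1.31 ± 0.23 (SE) at 14 dpc (limma adjusted p = 0.000382) and by -2.0 ± 0.22 at 16 dpc (adjusted p = 4.16e-07), a factor of 4.0. At 12 dpc the difference was -0.76 ± 0.29 and was not called (adjusted p = 0.466), though the class-adjusted fit called it at the same size (adjusted p = 0.000366). Leaving out any 1 of the arrays ended no averaged call at 14 or 16 dpc, and the class-adjusted values were -1.45 and -2.03.

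Wt1, a zinc-finger factor of the coelomic epithelium and later of Sertoli and granulosa cells, took the same side. At 16 dpc it was 10.68, 10.75 and 10.78 in wild-type ovary and 8.27, 9.91 and 9.91 in wild-type testis. In Wv/Wv it was 11.24, 11.14 and 11.34 in ovary and 9.80, 10.08 and 10.21 in testis. The gonads were apart in both genotypes, and averaged the testis was lower by -1.29 ± 0.20 (adjusted p = 4.27e-05, class-adjusted -1.09, adjusted p = 8.5e-08). At 14 dpc the 5 testis arrays lay at 9.88 to 10.54 and the 6 ovary arrays at 10.76 to 11.49, a difference of -0.68 ± 0.21 (adjusted p = 0.0408). That call was lost in 10 of 11 fits that left out 1 array (adjusted p up to 0.157), and with the replicate number as a block (-0.67, adjusted p = 0.0636), and held in the class-adjusted fit (adjusted p = 1.44e-05). At 12 dpc the difference was -0.30 ± 0.26 (adjusted p = 1). The mean of 9 other genes of the coelomic and surface epithelium ranged at 16 dpc from 7.92 to 10.2 on ovary and from 6.24 to 7.83 on testis arrays, and its part in the differences of Wt1 and Emx2 was not tested.

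Nr5a1, the gene of the receptor that drives steroid enzyme genes, stood on the testis side. At 14 dpc it was 10.14, 9.63 and 9.86 in wild-type ovary and 10.87, 10.62 and 10.59 in wild-type testis, and in Wv/Wv 10.28, 10.27 and 10.31 in ovary and 11.00 and 11.30 in testis. At 16 dpc it was 9.48, 9.98 and 9.49 in wild-type ovary, 9.77, 10.79 and 10.80 in wild-type testis, 10.11, 10.26 and 10.24 in Wv/Wv ovary and 11.38, 10.99 and 11.04 in Wv/Wv testis. Only wild-type testis array 1, at 9.77, overlapped the ovary range of its genotype. Averaged over genotypes, testis was higher by 0.84 ± 0.26 at 14 dpc (adjusted p = 0.0437) and by 0.87 ± 0.25 at 16 dpc (adjusted p = 0.0192). The call at 14 dpc was lost in 10 of 11 fits without 1 array (adjusted p up to 0.151) and with the replicate block (0.83, adjusted p = 0.066). At 16 dpc it was lost without wild-type testis array 2 or 3 (differences of 0.79 and 0.78). At 12 dpc the difference was 1.10 ± 0.33 (adjusted p = 0.150), which the class-adjusted fit called at the same size (adjusted p = 0.0224). That p-value uses a spread pooled over all groups and ages. The SD of Nr5a1 at 12 dpc was 0.91 in wild-type ovary, 0.64 in Wv/Wv ovary and 0.83 in Wv/Wv testis. Pooled over all groups in the fit to all arrays it was 0.45, and wild-type testis had 1 array at 12 dpc. The class-adjusted differences at 14 and 16 dpc were 0.90 and 1.15, both called (adjusted p = 0.00622 and 0.00117). Markers of testis and adrenal cells moved with it: the mean of 4 Leydig cell genes at 16 dpc was 6.52 to 7.23 on ovary and 11.1 to 12.8 on testis arrays, that of 13 Sertoli cell genes 6.14 to 6.46 and 8.06 to 8.57, and that of 6 adrenal genes 5.51 to 6.29 and 7.47 to 7.92. Their part was not tested. The direction did not hold once the mesonephros genes described below entered the fit: with their mean as a term the differences were -0.28 at 14 dpc and -0.45 at 16 dpc, neither called.

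Tcf21, a basic helix-loop-helix factor of the gonadal interstitium, was likewise higher in testis at 14 dpc, by 0.75 ± 0.21 (adjusted p = 0.0216). The 5 testis arrays ranged from 11.42 to 12.37 with a median of 11.77, and the 6 ovary arrays from 10.71 to 11.45 with a median of 11.28, so the ranges touched. The call was lost in 5 of 11 fits without 1 array. At 16 dpc the difference was 0.50 ± 0.20 and was not called (adjusted p = 0.110). A second, dimmer Tcf21 probe set, above the limit on 30 of 31 arrays, gave -0.12, 0.41 and 0.10 at 12, 14 and 16 dpc, none called (adjusted p = 1, 0.764 and 0.947). At 16 dpc wild-type testis array 1 read 10.63 and the other 5 testis arrays 12.09 to 12.41, against 11.15 to 11.67 in ovary. Without that array and with the class term it was 0.92 (adjusted p = 3.45e-07). At 12 dpc the difference was 0.60 ± 0.26 (adjusted p = 0.708, class-adjusted 0.00269). The mean of 7 other interstitial stroma genes at 14 dpc was 8.65 to 9.92 on ovary and 10.8 to 11.2 on testis arrays, and its part was not tested.

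Nr0b1, the X-linked gene of DAX1, a repressor of SF-1, had lower mean values in testis that were not called. At 12 dpc the difference was -0.12 ± 0.44 (adjusted p = 1). At 14 dpc the difference was -0.77 ± 0.35 (adjusted p = 0.234) and at 16 dpc -0.67 ± 0.33 (adjusted p = 0.238). The arrays at 16 dpc ran from 6.85 to 8.90 in ovary and from 5.25 to 7.89 in testis and overlapped widely. Nr0b1 was also the gene with the largest class shift, and the class-adjusted fit called both ages, at -0.97 (adjusted p = 0.000539) and -0.70 (adjusted p = 0.0129).

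Gata4, Zfpm2 and Lhx9 were called in no sex comparison of the fit to all arrays or of the class-adjusted fit. Gata4, which binds DNA with its cofactor FOG2, differed by 0.78 at 12 dpc (95% interval 0.087 to 1.47, unadjusted p = 0.0291, adjusted p = 0.678 by limma), -0.06 at 14 dpc (-0.61 to 0.50) and -0.28 at 16 dpc (-0.80 to 0.25). Zfpm2 differed by 0.05 (-0.64 to 0.74), 0.14 (-0.42 to 0.70) and -0.21 (-0.73 to 0.31) at the same ages. Lhx9, a LIM homeobox gene, differed by -0.49 (-1.15 to 0.17), -0.33 (-0.86 to 0.20) and 0.08 (-0.42 to 0.58). The intervals are wide, so they do not show equal levels. The class-adjusted values at 14 and 16 dpc were 0.07 and 0.05 for Gata4, -0.01 and -0.22 for Zfpm2 and -0.34 and 0.28 for Lhx9. Lhx9 had 3 further probe sets, whose values at 16 dpc were 0.48, 0.77 and -0.20, none called.

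Cbx2, a Polycomb subunit whose loss turns XY gonads female, showed no called sex difference. It was 0.07 ± 0.25 at 12 dpc, 0.00 ± 0.20 at 14 dpc and 0.39 ± 0.19 at 16 dpc (adjusted p = 0.231 at 16 dpc), and 0.07, -0.11 and 0.35 in the class-adjusted fit.

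Counted over the 9 genes and averaged over genotypes, 0 were called at 12 dpc, where 1.02% of all genes were. At 14 dpc 4 were called, 2 higher in testis and 2 lower, with 9.05% of all genes called (5.46% higher and 3.59% lower). At 16 dpc 3 were called, 1 higher and 2 lower, with 12.5% of all genes called (6.33% higher and 6.22% lower). At 12 dpc 4 genes had an unadjusted limma p under 0.05 (Nr5a1, Gata4, Emx2 and Tcf21), and the class-adjusted fit called 3 (Nr5a1, Emx2 and Tcf21), where it called 5.18% of all genes. It called 5 at 14 dpc against 23.1% of all genes, and 5 at 16 dpc against 26.3%. Within wild type, 0 were called at 12 dpc (0.253% of all genes; 1 had an unadjusted limma p under 0.05 and 1 was called in the class-adjusted fit, where 1.35% of all genes were), 1 at 14 dpc (5.93%) and 2 at 16 dpc (9.65%). Within Wv/Wv, 0 were called at 12 dpc (0.374%; 2 in each of those ways, against 2.23% class-adjusted), 1 at 14 dpc (3.69%) and 2 at 16 dpc (6.96%). The gene called at 14 dpc was Emx2 in each genotype, and those at 16 dpc were Emx2 and Wt1. The call of Emx2 at 14 dpc was lost in 4 of 6 fits without 1 array in wild type and in 2 of 5 in Wv/Wv. The averages and the single genotypes use the same arrays.

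Fits to wide-spread arrays alone were added after the data were seen, and are given without the share of all genes called. They rest on 21 arrays in 11 groups with 10 residual degrees of freedom, and a group of 1 array is assumed to vary like the others: wild-type testis at 12 dpc, and Wv/Wv ovary and Wv/Wv testis at 14 dpc. The averaged difference of Emx2 was -0.76 ± 0.13 at 12 dpc (adjusted p = 0.00271) and -1.45 ± 0.14 at 14 dpc (adjusted p = 5.85e-06). At 14 dpc Wt1 was -0.82 (adjusted p = 0.000208), Tcf21 0.81 (adjusted p = 0.000105) and Nr5a1 0.84 ± 0.38, which was not called (adjusted p = 0.147). At 16 dpc wide-spread arrays gave a comparison within Wv/Wv alone, of 2 ovary and 2 testis arrays. There Emx2 was -2.05, Wt1 -1.15 and Tcf21 0.53, all called (adjusted p = 1.21e-06, 4.83e-05 and 0.00846), and Nr5a1 was 0.84 (adjusted p = 0.230). Narrow-spread arrays held 1 array in 3 of the 4 groups at 16 dpc, and wild-type testis was there array 1 alone. Values from that class alone are therefore given only among the processing alternatives below, and nothing is read from them.

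**Figure D2:**
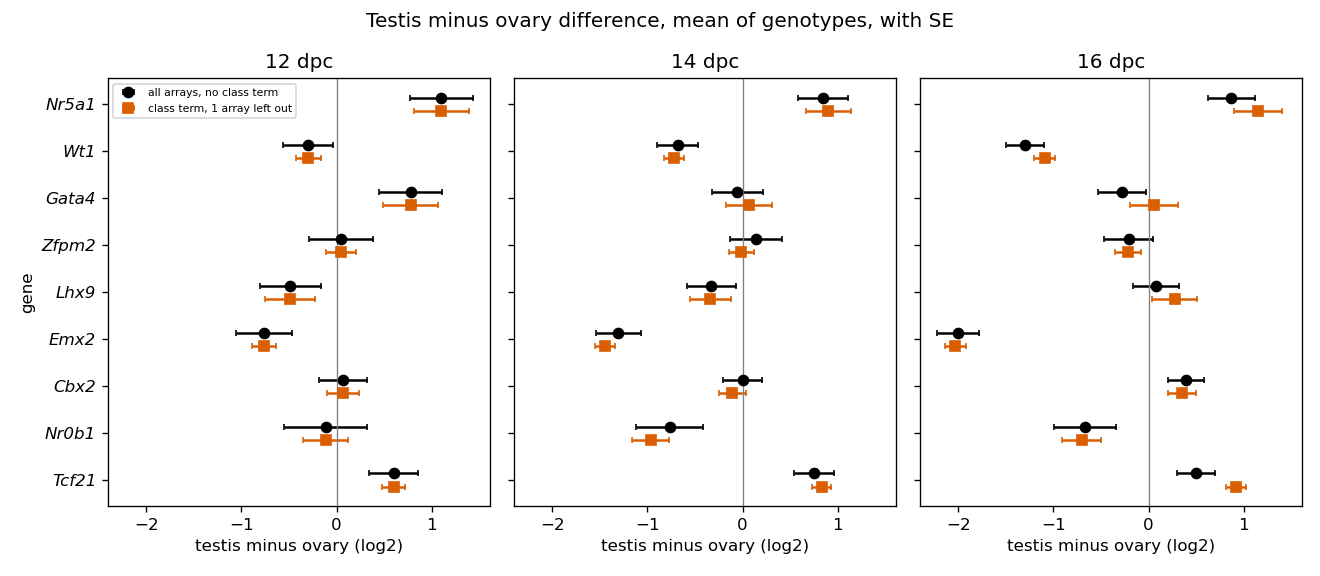
Testis minus ovary difference in log2 signal (horizontal axis), averaged over genotypes, for the 9 genes at 12, 14 and 16 dpc, with SE as bars. Black circles are the fit to all 31 arrays and orange squares the class-adjusted fit without 1 array. Emx2 lies at -0.76, -1.31 and -2.0, Wt1 reaches -1.29 at 16 dpc, and Nr5a1 and Tcf21 lie to the right of 0.

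Whether the sex difference itself changed with age was tested separately. From 12 to 16 dpc it moved by -1.24 ± 0.37 for Emx2 (adjusted p = 0.0846) and by -1.0 ± 0.33 for Wt1 (adjusted p = 0.151). Limma called 0 of 9 genes, against 2.48% of all genes, with 3 at an unadjusted p under 0.05. The class-adjusted fit called both Emx2 (-1.27, adjusted p = 1.53e-05) and Wt1 (-0.80, adjusted p = 0.00332), against 9.76% of all genes. Within wild type and within Wv/Wv, limma called 0 of 9 (0.627% and 1.09% of all genes), with 0 and 2 at an unadjusted p under 0.05 and 1 and 2 called in the class-adjusted fit (3.56% and 6.65% of all genes). From 14 to 16 dpc 0 of 9 were called (0.055% of all genes), with 2 at an unadjusted p under 0.05, and the class-adjusted fit called Emx2 (-0.58, adjusted p = 0.0469; 1.17% of all genes). No gene was called for a sex by genotype interaction at 12, 14 or 16 dpc, where limma called 0%, 0.275% and 0.813% of all genes and 0 members had an unadjusted p under 0.05.

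Signal of several of the genes at 12 dpc went with that of mesonephros and kidney tubule genes. Nr5a1 was 8.68 and 9.98 on the 2 wild-type ovary arrays, 8.90 and 9.81 in Wv/Wv ovary, 10.68 in wild-type testis and 11.16, 9.83 and 9.63 in Wv/Wv testis. On the same arrays, in the same order, the mean of 8 mesonephros and kidney tubule genes (Emx2 left out; Pax8 is among them) was 7.24 and 6.19, 7.40 and 6.98, 5.85, and 5.78, 7.14 and 7.20. In each of the 3 groups with more than 1 array, the array lowest for these genes was highest for Nr5a1, Gata4, Zfpm2, Lhx9 and Nr0b1, which holds for 18.6% of all genes. The gap to the other arrays of the group was 0.90 to 1.43 for Nr5a1, 0.84 to 1.43 for Gata4, 0.98 to 1.26 for Lhx9 and 0.71 to 1.07 for Nr0b1. For Zfpm2 it was smaller, 0.34 to 0.54. A gap over 0.5 in all 3 groups was seen in 0.813% of all genes. Cbx2 was lowest on those arrays in all 3 groups, as 16.2% of all genes were, with gaps of -0.12 to -0.28, and Wt1, Emx2 and Tcf21 followed neither pattern. The arrays lowest for mesonephros genes were also higher for markers of their own gonad. The mean of 10 pregranulosa cell genes was 9.77 against 9.00 in wild-type ovary and 9.61 against 9.22 in Wv/Wv ovary. That of 13 Sertoli cell genes in Wv/Wv testis was 8.62 against 7.50 and 7.53. What set these arrays apart was not tested.

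**Figure D3:**
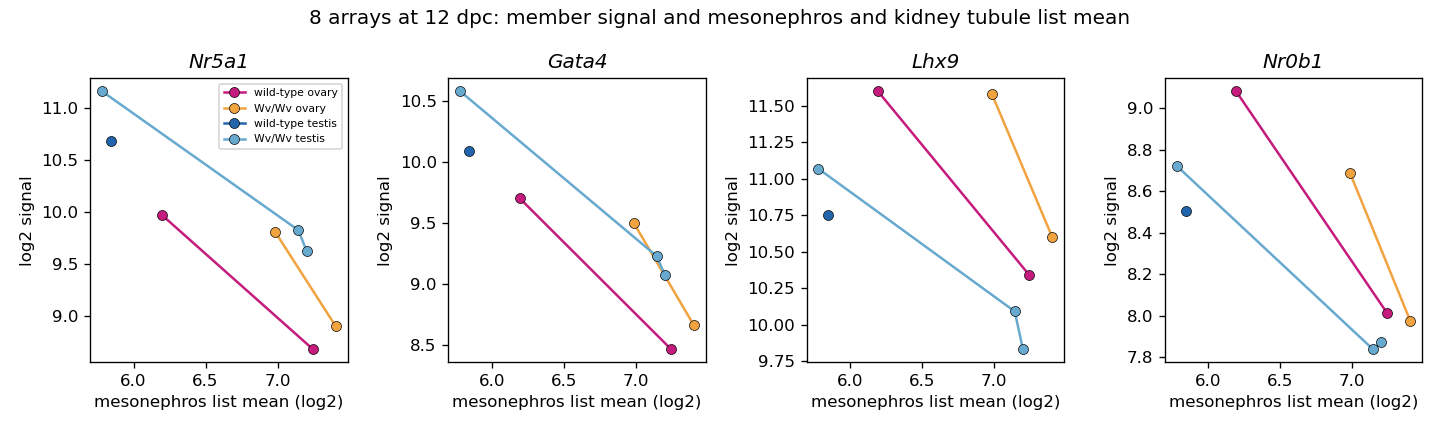
Log2 signal of Nr5a1, Gata4, Lhx9 and Nr0b1 (vertical axes) against the mean log2 signal of 8 mesonephros and kidney tubule genes (horizontal axes) on the 8 arrays at 12 dpc. Lines join arrays of a group, and wild-type testis has 1 array. In each joined group the array with the lowest mesonephros mean has the highest signal.

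The same list also differed between the gonads, at 5.97 to 6.60 on ovary and 5.07 to 5.49 on testis arrays at 14 dpc, and at 6.30 to 6.54 and 4.87 to 5.42 at 16 dpc. With its mean as a term, the differences of Emx2 were -1.70 at 14 dpc and -2.46 at 16 dpc and stayed called (adjusted p = 0.00436 and 0.000204), and that of Wt1 at 16 dpc was -1.70 (adjusted p = 0.00308). Nr5a1 turned sign, as given above. Lhx9 was then called lower in testis at all 3 ages, by -1.16, -1.41 and -1.19 (adjusted p = 0.0220, 0.00178 and 0.0144), Nr0b1 at 14 and 16 dpc, by -1.87 and -1.96, and Gata4 at 16 dpc, by -1.42. The share of all genes called with this term is not given, so these calls do not single out the members. The term is set by the spread within groups, which is largest at 12 dpc, and it also takes in the gonads' own difference in the mesonephros genes. How much of the sex differences goes with tissue makeup and how much with the cells' own RNA cannot be told apart in these samples.

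With age, Cbx2 was the 1 gene of the 9 whose fall from 12 to 16 dpc was called in both ovary and testis. Its signal in wild-type ovary was 9.55 and 9.27 at 12 dpc and 7.73, 8.56 and 7.83 at 16 dpc, a fall of -1.36 ± 0.30 (adjusted p = 0.00673). In Wv/Wv ovary it was 9.43 and 9.31, then 8.23, 7.53 and 8.35, a fall of -1.33 ± 0.30 (adjusted p = 0.0109). In Wv/Wv testis it was 9.40, 9.76 and 9.61, then 8.52, 8.56 and 8.35, a fall of -1.11 ± 0.27 (adjusted p = 0.0119). Every array at 16 dpc was below every array at 12 dpc in these groups. In wild-type testis the 1 array at 12 dpc read 9.32 and those at 16 dpc 7.72, 8.80 and 8.64, a difference of -0.93 that was not called (adjusted p = 0.366, class-adjusted -0.60). Leaving out 1 array ended the call in 1 of 5 fits for wild-type ovary (without 12 dpc array 1), in 3 of 5 for Wv/Wv ovary and in 3 of 6 for Wv/Wv testis. The class-adjusted falls of the 3 called groups were -0.94, -1.19 and -0.97, all called. In wild-type ovary all arrays were wide-spread at 12 dpc and narrow-spread at 16 dpc. There age and class coincide, and -0.94 rests on a class shift taken from other groups. The mitotic cell cycle genes, a list of 12, ranged from 10.4 to 11.0 over all arrays at 12 dpc and from 8.80 to 10.6 at 16 dpc, and their part in the fall of Cbx2 was not tested. The mean of the 8 mesonephros genes also fell from 12 to 16 dpc. It went from 6.72 to 6.31 in wild-type ovary, 5.85 to 5.15 in wild-type testis, 7.19 to 6.48 in Wv/Wv ovary and 6.71 to 5.08 in Wv/Wv testis. With that mean as a term, called members went from 3 to 1 in Wv/Wv testis and from 1 to 3 in wild-type ovary.

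Emx2 and Wt1 fell with age in testis. From 12 to 16 dpc Emx2 fell by -2.04 ± 0.44 in wild-type testis (adjusted p = 0.0127) and by -1.52 ± 0.31 in Wv/Wv testis (adjusted p = 0.00274), and the calls were kept without any 1 of the 3 wild-type arrays at 16 dpc or of the 6 Wv/Wv arrays. The wild-type comparison rests on 1 array at 12 dpc, which could not be left out. The class-adjusted falls of Emx2 were -1.53 and -1.34, both called. Wt1 fell by -1.55 ± 0.40 (adjusted p = 0.0455) and -1.02 ± 0.28 (adjusted p = 0.0312). The wild-type call of Wt1 was lost with the replicate block (-1.64, adjusted p = 0.0572). The Wv/Wv call of Wt1 was lost in 6 of 6 fits without 1 array (adjusted p up to 0.153), while the class-adjusted falls of -1.0 and -0.97 were called (adjusted p = 0.00274 and 2.37e-05). In ovary Emx2 changed by -0.93 ± 0.35 in wild type (adjusted p = 0.0944) and -0.16 ± 0.35 in Wv/Wv (adjusted p = 0.976), and Wt1 by -0.59 (adjusted p = 0.200) and 0.02 (adjusted p = 0.996). The class-adjusted ovary values were -0.36 and 0.03 for Emx2 and -0.44 and 0.06 for Wt1, none called. The mesonephros genes fell in testis too, as given for Cbx2, and their part in the falls of Emx2 and Wt1 was not tested.

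The other 6 genes were not called from 12 to 16 dpc in the fit to all arrays. Nr0b1 was -1.40 ± 0.52 in wild-type ovary and -1.80 ± 0.66 in wild-type testis (adjusted p = 0.0923 and 0.262), further than Cbx2 in size but with a wider error, and 0.10 and -0.60 in Wv/Wv ovary and testis. Its class-adjusted values were -0.60, -1.08, 0.36 and -0.33, none called. Gata4 in Wv/Wv ovary had the largest positive value, 1.29 ± 0.40 (adjusted p = 0.0789), and the class-adjusted fit called it (1.13, adjusted p = 0.030). The 12 dpc arrays of that group are high in mesonephros genes, and the second Gata4 probe set gave 0.35 there. In the other groups Gata4 was 0.83 (wild-type ovary), -0.46 (wild-type testis) and 0.48 (Wv/Wv testis). Tcf21 was 0.67 ± 0.31 in Wv/Wv ovary and 0.55 ± 0.28 in Wv/Wv testis, which the class-adjusted fit called at 0.56 and 0.44 (adjusted p = 0.00882 and 0.0218), and 0.12 and 0.05 in wild-type ovary and testis. In the order wild-type ovary and testis, then Wv/Wv ovary and testis, Nr5a1 was 0.32, -0.23, 0.85 and 0.93, Zfpm2 -0.68, -0.89, 0.21 and -0.10, and Lhx9 -0.57, -0.38, -0.33 and 0.62. In wild-type ovary the further Lhx9 probe sets gave -1.485, -1.426 and 0.135, none called.

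Over the 9 genes, 16 against 12 dpc gave 1 call in wild-type ovary (7.68% of all genes), 2 in wild-type testis (1.65%), 1 in Wv/Wv ovary (3.69%) and 3 in Wv/Wv testis (5.39%), all lower at 16 dpc. Of all genes, 4.67%, 0.704%, 1.47% and 2.34% were called lower there, in the same order. The class-adjusted fit called 1, 2, 3 and 4 of the 9, against 11.7%, 6.74%, 17% and 17.3% of all genes; 2 of those in Wv/Wv ovary and 1 in Wv/Wv testis were higher at 16 dpc. Of the shorter steps, 14 against 12 dpc gave 0 calls in each of the 4 gonads, where limma called 2.59%, 0.786%, 1.54% and 2.17% of all genes in the same order. Unadjusted p under 0.05 was reached by 0, 0, 3 and 3 of the 9. The class-adjusted fit called 0, 3, 0 and 2 (13.2%, 3.49%, 6.68% and 7.76% of all genes), all lower at 14 dpc: Wt1, Emx2 and Nr0b1 in wild-type testis, by -0.73, -0.77 and -1.31, and Emx2 and Cbx2 in Wv/Wv testis, by -0.55 and -0.76. The step from 14 to 16 dpc also gave 0 calls, against 0.357%, 0.83%, 0.0989% and 0.11% of all genes, with 1, 2, 0 and 0 at an unadjusted p under 0.05. There the class-adjusted fit called 0, 1, 0 and 1 (1.26%, 2.61%, 1.1% and 0.693% of all genes), which was Emx2 in each testis, by -0.76 and -0.79 (adjusted p = 0.00504 and 0.00797).

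**Figure D4:**
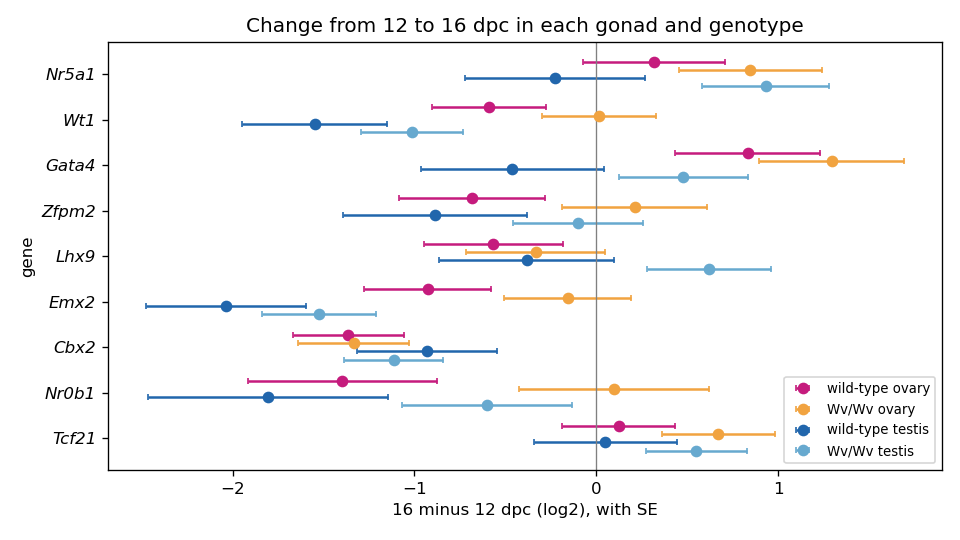
Change in log2 signal from 12 to 16 dpc (horizontal axis) of the 9 genes in each gonad and genotype, with SE as bars. Cbx2 lies between -1.36 and -0.93 in all 4, Emx2 and Wt1 are lowest in the testis groups, and Nr0b1 reaches -1.80 in wild-type testis with a wide error.

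Between Wv/Wv, which have lost most germ cells, and wild type, the fit to all arrays called none of the 9 genes at the probe sets used here. Averaged over sexes, 0 of 9 were called at 12, 14 and 16 dpc, where limma called 0.192%, 4.65% and 2.2% of all genes, and 0, 2 and 6 had an unadjusted p under 0.05. The largest value was that of Nr0b1 at 16 dpc, 1.06 ± 0.33 higher in Wv/Wv (adjusted p = 0.0845). Its arrays were 7.24, 7.36 and 6.85 in wild-type and 8.56, 7.82 and 8.90 in Wv/Wv ovary, and 5.25, 7.37 and 7.48 in wild-type and 6.94, 7.81 and 7.89 in Wv/Wv testis. In ovary the genotypes did not overlap, but all 3 wild-type arrays were narrow-spread, the class in which Nr0b1 reads low, and the class-adjusted value was 0.57 (adjusted p = 0.0537). Zfpm2 (0.77), Emx2 (0.70), Nr5a1 (0.62), Wt1 (0.58) and Tcf21 (0.47) also had higher means in Wv/Wv at 16 dpc, with adjusted p from 0.0879 to 0.150. Gata4 and Lhx9 were at 0.47 each (adjusted p = 0.238 and 0.223) and Cbx2 at 0.04. A second, dimmer Zfpm2 probe set, above the limit on all 31 arrays, differed from the first: it was called at 14 dpc (0.88 ± 0.25, adjusted p = 0.0447), where the first gave 0.29, and gave -0.12 at 16 dpc. In the fit to all arrays the median over the 9 genes was 0.58, against 0.07 over all genes. That fit has no class term, and all genes are not matched to the 9 in signal. Housekeeping genes, a list of 17, also had higher means in Wv/Wv at 16 dpc. Their testis means were 11.77 in Wv/Wv against 11.36, and their ovary means 11.72 against 11.67. The medians therefore do not single out the 9 genes. The class-adjusted fit called Emx2 at 16 dpc (0.35, adjusted p = 0.0252; 12% of all genes). It called 0 at 12 dpc (0.28% of all genes). At 14 dpc it called Wt1, Zfpm2, Emx2, Nr0b1 and Tcf21, at 0.30 to 0.64 (15% of all genes). RNA of germ cells is part of the wild-type total and nearly absent from that of Wv/Wv gonads, so a gene of the somatic cells can differ in share without a change per cell, and these cannot be told apart. Within single gonads the fit to all arrays called 0 of 9. In ovary limma called 0.0934%, 4.37% and 3.74% of all genes at 12, 14 and 16 dpc, with 0, 0 and 3 of the 9 at an unadjusted p under 0.05. In testis it called 0.033%, 0.594% and 0.484%, with 0, 0 and 2. The class-adjusted fit called 0, 3 and 2 in ovary (0.187%, 20.6% and 16.5% of all genes), all higher in Wv/Wv: Wt1, Zfpm2 and Emx2 at 14 dpc, by 0.41, 0.55 and 0.39, and Zfpm2 and Tcf21 at 16 dpc, by 0.60 and 0.59. In testis it called 0, 0 and 0 (0.121%, 0.945% and 0.995%).

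Group means of the genes were compared over the 12 groups as a description, since the groups share array classes and tissue makeup. Emx2 and Wt1 were most alike (Pearson r = 0.98), and Nr0b1 followed them (r = 0.88 with Wt1 and 0.84 with Emx2). Nr5a1 and Tcf21 formed a second pair (r = 0.91), and each ran against Emx2 (r = -0.68 and -0.68). Among other genes, Podxl, encoding the sialomucin podocalyxin, was most like both Emx2 (r = 0.99) and Wt1 (r = 0.98). Next were Cdkn1c, a cell cycle inhibitor gene, for Emx2 (0.98) and Plxna2, a semaphorin receptor gene, for Wt1 (0.97). Nr5a1 was followed by Ankrd13a (0.98) and Rasgef1b (0.97), and Tcf21 by Cdc42ep1 (0.96) and the basement membrane collagen gene Col4a2 (0.95). Gata4 was most like Axl (0.96), a receptor tyrosine kinase gene, and C1qtnf1 (0.94), and Zfpm2 like Manea (0.93) and Nedd4 (0.93). Cbx2 was most like Cdca7 (0.97) and Pcbp4 (0.97), and Nr0b1 like Rasa3 (0.96) and Cep164 (0.96). Lhx9 had no close partner: Pipox and Litaf reached 0.75 each and 0.53 and 0.47 after class adjustment. Some other likenesses also changed with that adjustment. Nedd4 went to 0.82 and rank 37 for Zfpm2, Col4a2 to 0.935 and rank 47 for Tcf21, and Podxl to rank 6 for Wt1. Podxl for Emx2, Ankrd13a for Nr5a1, Axl for Gata4 and Cdca7 for Cbx2 stayed at rank 1, the most alike gene.

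Genes that these factors act on or beside were examined in the same comparisons. The share of all genes called, against which each count below stands, was 1.02% at 12 dpc, 5.46% higher and 3.59% lower in testis at 14 dpc, and 6.33% higher and 6.22% lower at 16 dpc. Of 12 measured SF-1 target genes, 1 was called at 12 dpc (Sox9, 2.13 ± 0.47, adjusted p = 0.0182). At 14 dpc 11 were higher and 1 lower in testis, with a median of 2.77, and at 16 dpc 10 were higher and 1 lower, with a median of 2.70. The all-gene medians were 0.01 and -0.03. The largest at 16 dpc were the steroid enzyme genes Cyp11a1 (8.13 ± 0.23) and Cyp17a1 (7.29 ± 0.21) and the cholesterol carrier gene Star (4.33 ± 0.22), beside 0.87 for Nr5a1 itself. These target genes mark Leydig and Sertoli cells, so the list also follows which cells are present.

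Of 22 other regulators of the early gonad, 4 were higher and 5 lower in testis at 14 dpc and 1 higher and 4 lower at 16 dpc. Rspo1 and Wnt4, signals of the ovary programme, were lower in testis at 16 dpc by -2.30 ± 0.23 and -1.51 ± 0.28 (adjusted p = 1.01e-07 and 0.000353), and Cited1 was higher by 1.77 ± 0.25 (adjusted p = 1.05e-05). At 12 dpc only Fgfr2 was called, lower by -1.03 ± 0.20 (adjusted p = 0.00641). With age Tbx18, a T-box gene of the coelomic epithelium and mesenchyme, fell from 12 to 16 dpc in all 4 gonads, by -2.65 to -3.33.

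Of 16 family relatives of the 9 genes, 3 were higher and 1 lower in testis at each of 14 and 16 dpc. At 16 dpc Egr1, a zinc-finger relative of Wt1, was higher by 2.61 ± 0.35 (adjusted p = 5.74e-06), and Msc and Tcf23, helix-loop-helix relatives of Tcf21, by 2.41 ± 0.21 and 2.07 ± 0.37 (adjusted p = 6.46e-09 and 0.000282). Of 23 other Polycomb genes, 1 was called lower in testis at 14 dpc (Pcgf1, -0.68) and 2 at 16 dpc (Jarid2, -0.92, and Pcgf1, -0.80). From 12 to 16 dpc, where Cbx2 fell, 2 of the 23 fell in wild-type ovary (Pcgf3, -1.22, and Phc2, -1.20), where 4.67% of all genes did. The other 3 gonads gave 0 calls, with Ezh2 at -1.18 in wild-type testis and -1.23 in Wv/Wv ovary and Pcgf6 at -1.33 in Wv/Wv testis. Of 8 genes for proteins that work with WT1, Basp1 alone was called between the gonads, higher in testis by 0.90 ± 0.22 at 14 dpc (adjusted p = 0.00926) and 0.66 ± 0.21 at 16 dpc (adjusted p = 0.0391).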

How the data were processed

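RNA of 31 whole fetal gonad samples was hybridised to Affymetrix arrays, 1 array per sample. The deposited values are log2 signals that the authors made with RMA, per the submitters' processing notes; its version was not given in the sources used here. Of 45101 probe sets, 34958 carried 1 gene symbol, 932 several and 9211 were not listed in the annotation; 1 probe set per gene, that with the highest mean, gave 18194 genes. Group means were fitted to all arrays with limma 3.58.1 (lmFit and eBayes, R 4.3.3; 12 groups, 19 residual degrees of freedom), and p-values were Benjamini-Hochberg adjusted over all genes of a comparison. No filter on low signal was set, and the limit of 5.39 is the 40th percentile of all values. The number of arrays limits the precision. The procedure was tested on simulated data with independent noise on each array. The simulation held no array classes and no outlying array, so it does not test their effect on the calls.

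Alternatives were other normalizations and centring, array weights, the array class, a low-signal filter, the variance prior, other probe sets, a replicate block and leaving out each array. The class-alone fits and the fit with the mesonephros list mean were added after the data were seen. The members and gene lists were chosen with earlier results of these data known. The rule names every member in every comparison; here all are named for the averaged sex differences, for 16 against 12 dpc and for the averaged genotype difference at 16 dpc, and elsewhere by counts and called genes. Of other genes, the 2 most alike per member were named, and per list at most 3 of its called genes, taken by size of change (1 gene if no call was made). Promoter windows were from RefSeq (GRCm38.p6).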

Additional observations from a re-analysis of the deposited data

How the results depend on the processing

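The 9 genes were tested again under each alternative. Leaving out genes of low signal changed no direction and no call. For the rest, counts of called genes that moved over 1.5 times are given, each with the count from all 31 arrays behind it and WT for wild type. The share of all genes called can change with the setting too. With the class term it went from 9.05% to 23.1% for averaged sex at 14 dpc. Shares under the other settings are not given, so a moved count does not single out the 9 genes. Array weights, whose estimate did not converge, gave 2 from 0 (WT 12), 3 from 0 (Wv/Wv 12), 4 from 0 (averaged 12), 5 from 1 (WT 14), 0 from 1 (Wv/Wv 14), 6 from 2 (WT 16), 7 from 2 (Wv/Wv 16), 5 from 3 (averaged 16) for testis against ovary. Also found were 5 from 1 (16 minus 12 WT ovary), 2 from 0 (14 minus 12 WT ovary), 4 from 0 (16 minus 14 WT ovary), 5 from 2 (16 minus 12 WT testis), 4 from 0 (14 minus 12 WT testis), 2 from 0 (16 minus 14 WT testis), 4 from 1 (16 minus 12 Wv/Wv ovary), 8 from 3 (16 minus 12 Wv/Wv testis), 1 from 0 (14 minus 12 Wv/Wv testis) for age. Further counts were 1 from 0 (averaged 14), 5 from 0 (ovary 16), 4 from 0 (averaged 16) for genotype. Last, it gave 1 from 0 (12 to 16 WT), 3 from 0 (12 to 16 Wv/Wv), 4 from 0 (12 to 16 averaged), 2 from 0 (14 to 16 WT) for sex by age. Also found were 4 from 0 (16) for sex by genotype. The class term, without wild-type testis 16 dpc array 1, gave 1 from 0 (WT 12), 2 from 0 (Wv/Wv 12), 3 from 0 (averaged 12), 4 from 1 (WT 14), 3 from 1 (Wv/Wv 14), 4 from 2 (WT 16), 5 from 2 (Wv/Wv 16), 5 from 3 (averaged 16) for testis against ovary. Also found were 3 from 0 (14 minus 12 WT testis), 1 from 0 (16 minus 14 WT testis), 3 from 1 (16 minus 12 Wv/Wv ovary), 2 from 0 (14 minus 12 Wv/Wv testis), 1 from 0 (16 minus 14 Wv/Wv testis) for age. Further counts were 3 from 0 (ovary 14), 5 from 0 (averaged 14), 2 from 0 (ovary 16), 1 from 0 (averaged 16) for genotype. Last, it gave 1 from 0 (12 to 16 WT), 2 from 0 (12 to 16 Wv/Wv), 2 from 0 (12 to 16 averaged), 1 from 0 (14 to 16 averaged) for sex by age. Cyclic loess gave 1 from 0 (Wv/Wv 12), 1 from 0 (averaged 12), 2 from 1 (WT 14), 2 from 1 (Wv/Wv 14), 5 from 3 (averaged 16) for testis against ovary. Also found were 1 from 0 (14 minus 12 WT testis), 1 from 0 (16 minus 14 WT testis), 2 from 0 (14 minus 12 Wv/Wv testis), 1 from 0 (16 minus 14 Wv/Wv testis) for age. Further counts were 3 from 0 (ovary 14), 4 from 0 (averaged 14), 3 from 0 (ovary 16), 3 from 0 (averaged 16) for genotype. Last, it gave 1 from 0 (12 to 16 WT), 2 from 0 (12 to 16 Wv/Wv), 2 from 0 (12 to 16 averaged) for sex by age. Wide-spread arrays alone gave 2 from 0 (Wv/Wv 12), 2 from 0 (averaged 12), 4 from 1 (WT 14), 3 from 1 (Wv/Wv 14) for testis against ovary. Also found were 2 from 0 (14 minus 12 WT ovary), 4 from 2 (16 minus 12 WT testis), 3 from 0 (14 minus 12 WT testis), 2 from 0 (16 minus 14 WT testis), 2 from 1 (16 minus 12 Wv/Wv ovary), 2 from 0 (14 minus 12 Wv/Wv testis) for age. Further counts were 2 from 0 (ovary 14), 4 from 0 (averaged 14) for genotype. Last, it gave 2 from 0 (12 to 16 Wv/Wv) for sex by age. The mesonephros term gave 1 from 0 (Wv/Wv 12), 1 from 0 (averaged 12), 3 from 1 (WT 14), 2 from 1 (Wv/Wv 14), 4 from 2 (WT 16), 4 from 2 (Wv/Wv 16), 5 from 3 (averaged 16) for testis against ovary. Also found were 3 from 1 (16 minus 12 WT ovary), 1 from 0 (16 minus 14 WT testis), 1 from 3 (16 minus 12 Wv/Wv testis) for age. Further counts were 1 from 0 (ovary 14), 2 from 0 (averaged 14), 1 from 0 (ovary 16), 2 from 0 (averaged 16) for genotype. Last, it gave 2 from 0 (12 to 16 averaged) for sex by age. Quantile normalization gave 1 from 0 (averaged 12), 2 from 1 (WT 14), 2 from 1 (Wv/Wv 14), 6 from 3 (averaged 16) for testis against ovary. Also found were 1 from 0 (16 minus 14 WT testis), 1 from 0 (14 minus 12 Wv/Wv testis) for age. Further counts were 2 from 0 (ovary 14), 3 from 0 (averaged 14), 1 from 0 (ovary 16), 3 from 0 (averaged 16) for genotype. Last, it gave 1 from 0 (12 to 16 WT), 2 from 0 (12 to 16 Wv/Wv), 2 from 0 (12 to 16 averaged) for sex by age. Housekeeping centring gave 1 from 0 (averaged 12), 2 from 1 (WT 14), 2 from 1 (Wv/Wv 14), 4 from 2 (WT 16), 5 from 3 (averaged 16) for testis against ovary. Also found were 3 from 1 (16 minus 12 WT ovary), 1 from 0 (16 minus 14 WT testis) for age. Further counts were 2 from 0 (ovary 14), 3 from 0 (averaged 14), 3 from 0 (ovary 16), 3 from 0 (averaged 16) for genotype. Last, it gave 2 from 0 (12 to 16 Wv/Wv), 2 from 0 (12 to 16 averaged) for sex by age. Leaving out wild-type testis 16 dpc array 1, with no class term, gave 3 from 1 (WT 14), 3 from 1 (Wv/Wv 14), 4 from 2 (WT 16), 5 from 3 (averaged 16) for testis against ovary. Also found were 4 from 1 (16 minus 12 WT ovary), 2 from 1 (16 minus 12 Wv/Wv ovary), 1 from 0 (14 minus 12 Wv/Wv testis) for age. Further counts were 1 from 0 (averaged 14), 4 from 0 (ovary 16) for genotype. Last, it gave 2 from 0 (12 to 16 Wv/Wv), 2 from 0 (12 to 16 averaged) for sex by age. A trended and robust prior gave 2 from 4 (averaged 14) for testis against ovary. Also found were 1 from 2 (16 minus 12 WT testis) for age. Narrow-spread arrays alone gave 5 from 2 (WT 16), 1 from 2 (Wv/Wv 16) for testis against ovary. Also found were 8 from 0 (testis 16), 8 from 0 (averaged 16) for genotype. Further counts were 1 from 0 (16) for sex by genotype. The fit to narrow-spread arrays has 3 residual degrees of freedom, 1 array in 3 of 4 groups at 16 dpc, and array 1 as all of its WT testis, so its counts are no check of the others. Some values reversed. With array weights Tcf21 from 14 to 16 dpc in WT testis was 0.48, Zfpm2 from 12 to 16 dpc in Wv/Wv testis 0.26 and the sex by genotype term of Cbx2 at 16 dpc -0.49. On wide-spread arrays alone the first was 0.50, and on narrow-spread arrays alone Zfpm2 in WT at 16 dpc was -1.15. With the mesonephros term, added after the data were seen as were the fits to 1 class, the averaged sex difference of Nr5a1 was -0.28 and -0.45 at 14 and 16 dpc, and that of Lhx9 at 16 dpc -1.19. A second probe set of Nr5a1, above the low-signal limit on 2 of 31 arrays, gave -0.43 and -0.028. Another, of Cbx2, above it on 0 arrays, gave 0.11, 0.00080 and 0.0068 from 12 to 16 dpc in WT ovary, Wv/Wv ovary and Wv/Wv testis. Housekeeping centring shifted the median of all genes by up to 0.523 (16 minus 12 dpc, WT testis) and down to -0.407 (genotype, testis, 16 dpc), and cyclic loess by at most 0.113. The cause of these changes was not tested. Leaving out each array in turn moved the averaged counts of testis against ovary to 0 to 1 at 12, 1 to 3 at 14 and 2 to 5 at 16 dpc. In WT they were 0 to 1 at 14 and 2 to 4 at 16 dpc, and in Wv/Wv 0 to 1 at 14 and 2 to 2 at 16 dpc. From 12 to 16 dpc counts were 0 to 1 in either ovary, 2 to 2 in WT testis and 1 to 3 in Wv/Wv testis, and 0 to 1 for 14 minus 12 dpc in Wv/Wv testis and 16 minus 14 dpc in WT testis. Averaged sex by age from 12 to 16 dpc was 0 to 2. For genotype at 16 dpc counts were 0 to 5 averaged and 0 to 1 in ovary, and the 5 came without WT testis 16 dpc array 3, 4 without its array 2 and 2 without Wv/Wv ovary 16 dpc array 2. The 5 for averaged sex at 16 dpc came without WT testis 16 dpc array 1. All other comparisons gave 0 to 0. With the replicate block the averaged count at 14 dpc went from 4 to 2 (Nr5a1 0.83, adjusted p = 0.066; Wt1 -0.67, adjusted p = 0.0636) and 16 minus 12 dpc in WT testis from 2 to 1. The block changed no other call. Over 138 pairs of same-numbered arrays, the median correlation of their deviations from group means was 0.0061 (-0.849 to 0.847). Over 270 pairs of other numbers it was -0.0032 (-0.889 to 0.842). Both spreads are wide, so these medians do not settle whether the numbers pair samples. Arrays per group, 1 to 3, limit what can be called.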
